A study of Mus musculus with 384 samples.

Results

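Trp53, the gene of the transcription factor p53, and 9 genes known as its targets were described across mammary epithelial cells of the mouse. The 10 genes (Trp53, Mdm2, Cdkn1a, Ccng1, Sesn1, Gdf15, Bax, Phlda3, Zmat3 and Trp53inp1) were taken by name, as a set chosen with earlier results of these data known, from the 49585 genes of the count table. All 10 were found, and all 10 reached the mean level of 5 CPM (counts per 1000000 reads) over the 5 groups that was set for a measured gene, as did 11106 genes in all.

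The study profiled single cells with Smart-seq2, a full-length RNA-seq method, to characterise a population between basal and luminal cells that its description gives as enriched after luminal ablation. Every mouse, WT included, has the strain label K8rtta/TetO-DTA/K5CreER/Rosa-Tomato on a mixed background. In such mice the K8 promoter drives the rtTA activator in luminal cells, doxycycline then switches on diphtheria toxin A, which blocks protein synthesis, and K5CreER with the Rosa-Tomato reporter labels cells of the basal lineage. Cells were sorted as Tomato+ and free of CD45, CD31 and CD140a, and then by CD29 and EpCAM. The ablated groups are hybrid, luminal and basal cells taken 1 week after 0.2 mg doxycycline had been injected into the ducts. The WT groups are luminal and basal cells, for which the labels record no injection and no doxycycline. The labels give no age, no animal for any cell, and no border of the hybrid gate, so ablation, injection, doxycycline and animal cannot be told apart between ablated and WT groups. Each group therefore counts as 1 sample: no test between groups was run, differences have no replicate check, and intervals cover counting error only.

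p53 is held at a low level by Mdm2, a ubiquitin ligase that marks it for destruction and whose own gene is a p53 target, which closes a feedback loop. DNA damage and other stresses free p53 from Mdm2, largely at the level of the protein, and p53 then binds paired copies of a decameric motif near its target genes. Targets such as Cdkn1a stop the cell cycle, targets such as Bax promote cell death, and others such as Sesn1 adjust metabolism. The p53 gene is often mutated in breast cancer, and people with an inherited loss of p53 function are prone to breast tumours. The values here are RNA levels, and neither p53 protein nor its binding was measured.

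The windows from 250 bases before to 50 bases after each annotated start (RefSeq, GRCm38.p6) were searched for the p53 decamer consensus, which reads the same on both strands. Such windows were found for 8 of the 10 genes, Zmat3 and Trp53inp1 being the others. Of these 8 genes, 6 held a match in at least 1 window, as did 6 of their 11 windows, against 8.36% of all 32851 windows. Phlda3 and Gdf15 held none. The stretches below carry the matches of the regulator, its inhibitor and 3 targets whose values are described next, 5′ to 3′ on the gene's strand, with each match in capitals. A match is a run of letters and not a measured binding site.
Trp53, chr11:69580259-69580318, plus strand: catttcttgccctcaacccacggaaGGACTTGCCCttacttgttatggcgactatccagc
Mdm2, chr10:117710910-117710969, minus strand: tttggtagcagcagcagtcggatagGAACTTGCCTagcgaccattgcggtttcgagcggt
Cdkn1a, chr17:29090903-29090962, plus strand: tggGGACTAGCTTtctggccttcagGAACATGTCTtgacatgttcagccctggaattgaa
Ccng1, chr11:40755437-40755496, minus strand: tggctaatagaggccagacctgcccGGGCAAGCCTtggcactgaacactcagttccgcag
Bax, chr7:45467065-45467124, minus strand: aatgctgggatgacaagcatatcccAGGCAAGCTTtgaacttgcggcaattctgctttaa
Among these stretches Cdkn1a alone holds a pair of matches, which begin 73 and 51 bases before the upstream of its 2 annotated starts. The 10 bases that follow its second match differ from the consensus at 1 position, whereas those that follow the matches of Trp53, Mdm2, Ccng1 and Bax differ at 3, 5, 6 and 6 positions. Bases before a match, and pairs with a spacer between them, were not scored. The 10 bases before the match of Ccng1 also lie near the consensus, so Cdkn1a is not shown to be alone in holding a near pair. The match in Trp53 begins 75 bases before the start, that in Ccng1 185, that in Mdm2 186 and that in Bax 201 bases before it. The remaining match, in Sesn1, begins 173 bases before the second of its 2 annotated starts. All 10 are protein-coding genes. In GENCODE M21 on GRCm38 the regulatory pair lies with Trp53 at chr11:69580359-69591873 (plus strand) and Mdm2 at chr10:117688875-117710758 (minus strand). Genes of arrest and stress are Cdkn1a at chr17:29090976-29100727 (plus strand), Ccng1 at chr11:40748552-40755311 (minus strand), Sesn1 at chr10:41809935-41908424 (plus strand) and Gdf15 at chr8:70629393-70632456 (minus strand). Genes linked to cell death or to growth signals are Bax at chr7:45461697-45466898 (minus strand), Phlda3 at chr1:135766119-135769136 (plus strand), Zmat3 at chr3:32334792-32366014 (minus strand) and Trp53inp1 at chr4:11156431-11174379 (plus strand).

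After wells with few reads or many mitochondrial reads had been left out, 85 of 92 ablated hybrid, 76 of 91 ablated luminal, 71 of 91 ablated basal, 43 of 50 WT luminal wells and 44 of 50 WT basal wells remained. Kept cells held 118310 to 3835005 reads in genes. Median depth was 1078728 reads in ablated hybrid, 1085297 in ablated luminal, 677373 in ablated basal, 1372883 in WT luminal and 978494 in WT basal cells. The 10 basal markers summed after ablation to 17867, 6423 and 33949 CPM in hybrid, luminal and basal cells, against 168 CPM in WT luminal and 21157 CPM in WT basal cells. The 10 luminal markers summed after ablation to 14740, 24075 and 1053 CPM in hybrid, luminal and basal cells, against 29338 CPM in WT luminal and 1622 CPM in WT basal cells. These sums followed the labels, with hybrid cells high in both. Immune markers summed to 0.282 to 112 CPM and endothelial markers to 0.0433 to 11.7 CPM. The 7 fibroblast markers summed to 531 CPM in ablated hybrid, 92.6 CPM in ablated luminal, 1954 CPM in ablated basal, 577 CPM in WT luminal and 920 CPM in WT basal cells. Most of each sum was 1 gene, Dcn, with 473, 88.9 and 1806 CPM in ablated hybrid, luminal and basal cells. Dcn had 571 CPM in WT luminal and 813 CPM in WT basal cells, and Lum had no read in any group. The part of such cells or their RNA in the results below was not tested, and Ptprc, the CD45 gene, was at 0 in every group but ablated hybrid. In each group 1 further library of many cells, whose number is not given, held 1005368 to 3511761 reads. In such a library fewer cells with a gene and less of its RNA per cell cannot be told apart. The 5 negative control wells held 7930 to 13572 reads, of which 3 to 14 per well were Cdkn1a reads and at most 2 per well came from any other of the 10 genes.

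The level of a gene in a group is its reads summed over kept cells, in CPM, and a cell detects a gene with at least 5 reads once thinned to 100000 reads. At this depth the mean gene was detected in 25.3% of ablated hybrid, 24.4% of ablated luminal, 14.3% of ablated basal, 17.4% of WT luminal cells and 11.3% of WT basal cells, so that shares of detecting cells differ between groups for genes at large. Per kilobase of exon, the mean level over the groups was highest for Cdkn1a at 195 CPM per kb, followed by Phlda3 at 71.8, Trp53 at 52.5 and Bax at 41.6 CPM per kb. Mdm2, Trp53inp1 and Ccng1 had 21.9, 18.4 and 15.0 CPM per kb, and Sesn1, Gdf15 and Zmat3 had 3.92, 3.65 and 1.23 CPM per kb.

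Trp53 RNA was higher in ablated than in WT cells of both lineages when single cells were summed. It stood at 294 CPM in ablated hybrid, 224 CPM in ablated luminal and 314 CPM in ablated basal cells, against 93.5 CPM in WT luminal and 137 CPM in WT basal cells. The 95% counting intervals were 290.2 to 297 CPM for ablated hybrid, 221 to 227 CPM for ablated luminal, 309.5 to 319 CPM for ablated basal, 91.3 to 95.8 CPM for WT luminal and 134 to 141 CPM for WT basal cells, and do not meet. Single cells overlapped widely: the lowest, median and highest cell had 0.774, 202 and 1115 CPM in ablated hybrid cells, 0, 167 and 922 CPM in ablated luminal, 0, 25 and 1526 CPM in ablated basal, 0, 6.10 and 650 CPM in WT luminal, and 0, 1.92 and 1819 CPM in WT basal cells. The medians are thus high in hybrid and luminal cells after ablation and lower in the other 3 groups, while the highest cells of the groups lie between 650 and 1819 CPM. Trp53 was detected in 75.3% of ablated hybrid cells (95% exact interval 64.7 to 84%), 67.1% of ablated luminal (55.4 to 77.5%), 45.1% of ablated basal (33.2 to 57.3%), 32.6% of WT luminal (19.1 to 48.5%) and 25% of WT basal cells (13.2 to 40.3%). Without thinning the shares were 82.4, 77.6 and 52.1% in ablated hybrid, luminal and basal cells, against 58.1 and 29.5% in WT luminal and basal cells. The gain in detecting cells was 34.5 points in ablated over WT luminal cells, above that of 98.8% of measured genes, where the mean gene gained 7.01 points. In ablated over WT basal cells it was 20.1 points, above that of 96.8% of measured genes, where the mean gene gained 3.08 points.

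The log2 ratio of Trp53, taken here and throughout after adding 10 CPM, was 1.17 in ablated over WT luminal cells and 1.14 in ablated over WT basal cells. The luminal value was 0.90 with TMM scaling and 0.86 with median-of-ratios scaling, where the all-gene median of 0.21 becomes 0.01 and −0.01. The basal value was 0.97 with equal weight per cell and 0.96 with median-of-ratios scaling. All wells lay on 1 plate, where neighbouring groups shared some lines, and the cells of a group in 1 line are a subset of it, not a replicate. Trp53 ranged over lines from 186 to 273 CPM in ablated luminal cells, against 67.4 to 126 CPM in WT luminal cells, and from 203 to 420 CPM in ablated basal cells, against 54.5 to 172 CPM in WT basal cells, so that neither pair overlapped. In the line that holds cells of both basal groups, Trp53 had 282 CPM in ablated basal (9 cells) against 54.5 CPM in WT basal cells (13 cells). Ablated hybrid lines ran from 125 to 401 CPM and overlapped those of both other ablated groups, so that the order among the 3 ablated groups is within the spread of lines. The libraries of many cells gave 299 CPM for ablated hybrid, 289 for ablated luminal and 106 for ablated basal, against 91.5 for WT luminal and 161 CPM for WT basal. They repeat the order of the luminal pair but reverse that of the basal pair, with a log2 ratio of −0.55.

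**Figure D1:**
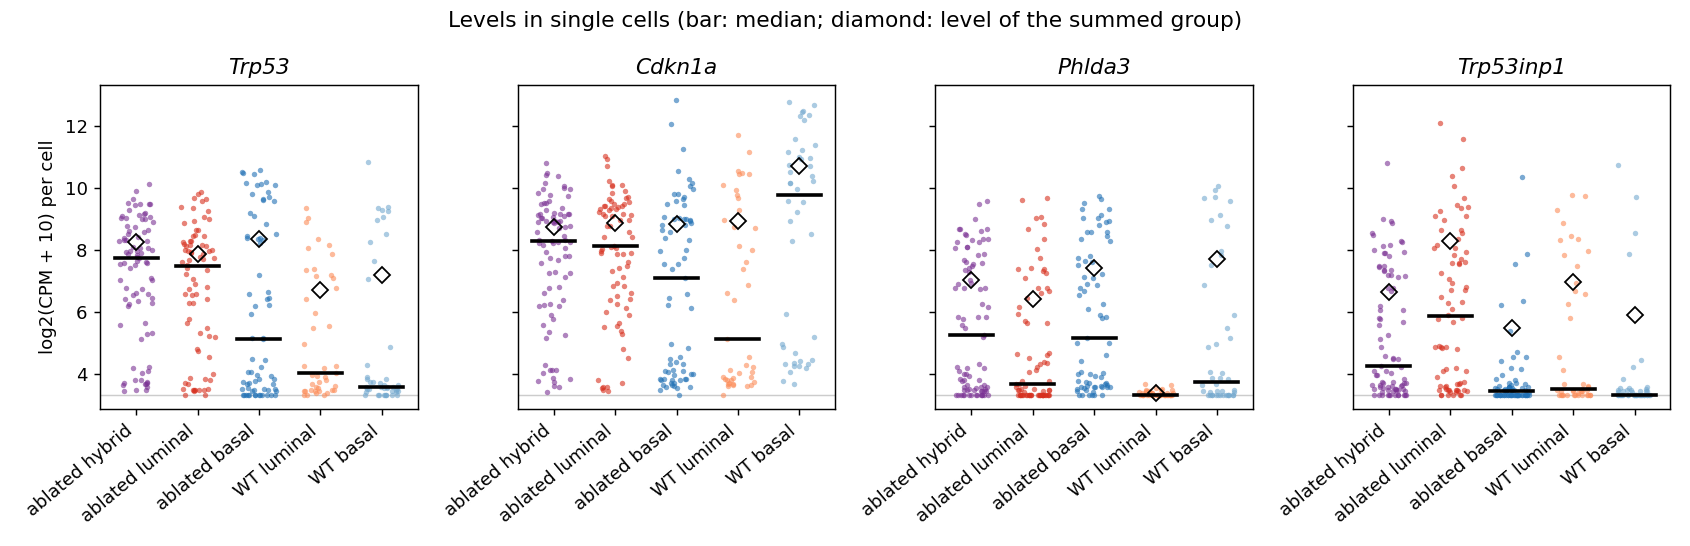
Levels of Trp53, Cdkn1a, Phlda3 and Trp53inp1 in single cells, as log2(CPM + 10) on the vertical axis, for 85 ablated hybrid, 76 ablated luminal, 71 ablated basal, 43 WT luminal and 44 WT basal cells. Points are cells, bars medians and diamonds the level of the summed group. Median Trp53 is highest in ablated hybrid cells (202 CPM), median Cdkn1a in WT basal cells (878 CPM), and every WT luminal cell lies at or under 2.62 CPM for Phlda3.

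Mdm2, which encodes the ligase that limits p53, passed 2-fold in none of the 5 comparisons of summed single cells. Its level was 76.9 CPM in ablated hybrid, 83.6 CPM in ablated luminal and 137 CPM in ablated basal cells, against 89.5 CPM in WT luminal and 171 CPM in WT basal cells. Single cells ran from 0 in every group, with a median and a highest cell of 27 and 811 CPM in ablated hybrid cells, 14.8 and 4723 CPM in ablated luminal, 2.96 and 1538 CPM in ablated basal, 7.93 and 505 CPM in WT luminal, and 2.00 and 5772 CPM in WT basal cells. Cells of all groups overlap, and 1 WT basal cell held 53.6% of the Mdm2 reads of its group, whose level was 80.4 CPM without it. Ablated basal cells had 113 CPM without their cell with most Mdm2 reads, so the order of the basal pair reversed. Mdm2 was detected in 40% of ablated hybrid, 36.8% of ablated luminal, 21.1% of ablated basal, 27.9% of WT luminal cells and 18.2% of WT basal cells. The log2 ratio of Mdm2 was −0.09 in ablated over WT luminal cells and −0.30 in ablated over WT basal cells, where that of Trp53 was above 1 in both. Libraries of many cells gave 80.8, 25.1 and 62 CPM of Mdm2 in ablated hybrid, luminal and basal. WT luminal had 28.8 CPM there and WT basal 33.6 CPM. In the basal pair of these libraries Mdm2 had a log2 ratio of 0.72 and Trp53 of −0.55. For Mdm2 it was −0.15 in the luminal pair and 1.37, past 2-fold, in ablated hybrid over ablated luminal.

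Cdkn1a encodes p21, an inhibitor of cyclin-dependent kinases that mediates cell cycle arrest by p53. It stood apart in WT basal cells. Its level was 416 CPM in ablated hybrid, 455 CPM in ablated luminal and 443 CPM in ablated basal cells, against 476 CPM in WT luminal and 1666 CPM in WT basal cells. The interval in ablated basal cells, 438 to 449 CPM, is far below that in WT basal cells, 1654 to 1677 CPM, and the ablated groups and WT luminal cells lie between 416 and 476 CPM. The lowest, median and highest cell had 0.660, 302 and 1794 CPM in ablated hybrid cells, 0.874, 267 and 2099 CPM in ablated luminal, 0, 128 and 7436 CPM in ablated basal, 0, 24.7 and 3346 CPM in WT luminal, and 2.69, 878 and 7054 CPM in WT basal cells. The groups overlap in single cells, with the highest median in WT basal and the lowest in WT luminal cells. The log2 ratio was −1.89 in ablated over WT basal cells and −1.79 in WT luminal over WT basal cells. Both passed 2-fold under all 11 alternative settings, with ranges of −2.60 to −1.74 and −2.23 to −1.76. Plate lines of ablated basal cells ran from 232 to 952 CPM and those of WT basal cells from 1524 to 1795 CPM, with 252 CPM in ablated basal against 1524 CPM in WT basal cells within the line they share. The lines of the 4 lower groups overlapped each other. The libraries of many cells had 535 CPM in ablated hybrid, 120.5 CPM in ablated luminal and 186 CPM in ablated basal, against 339 CPM in WT luminal and 1173 CPM in WT basal, with WT basal again highest.

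Shares of cells detecting Cdkn1a were 78.8% in ablated hybrid (68.6 to 86.9%), 81.6% in ablated luminal (71 to 89.5%), 56.3% in ablated basal (44 to 68.1%), 48.8% in WT luminal (33.3 to 64.5%) and 65.9% in WT basal cells (50.1 to 79.5%). In ablated over WT luminal cells the share was 32.7 points higher, above the gain of 98.3% of measured genes, while the log2 ratio of the level was −0.06. No order is read from these shares, since they go against the level and depend on the number of reads required. With 20 reads required the shares were 62.4, 60.5 and 45.1% in ablated hybrid, luminal and basal cells, against 37.2 and 63.6% in WT luminal and basal cells. Without thinning they were 90.6% in ablated hybrid, 89.5% in ablated luminal and 70.4% in ablated basal, against 83.7% in WT luminal and 95.5% in WT basal. One WT luminal cell held 36.7% of that group's Cdkn1a reads, and without it the level there was 318 CPM. Among detecting cells the median level was 492.9 CPM in ablated luminal and 620 CPM in WT luminal cells, and 495 CPM in ablated basal and 1707 CPM in WT basal cells. Dissociation-induced genes, 14 immediate early and heat-shock genes, summed to 14420 CPM in ablated hybrid, 14284 CPM in ablated luminal, 23864 CPM in ablated basal, 16848 CPM in WT luminal and 26293 CPM in WT basal cells. Their part in the Cdkn1a levels was not tested. A gene on the opposite strand, AC167363.2, overlaps Cdkn1a and has no entry in the count table. Its reads could not be told apart from those of Cdkn1a if counting ignored strand.

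**Figure D2:**
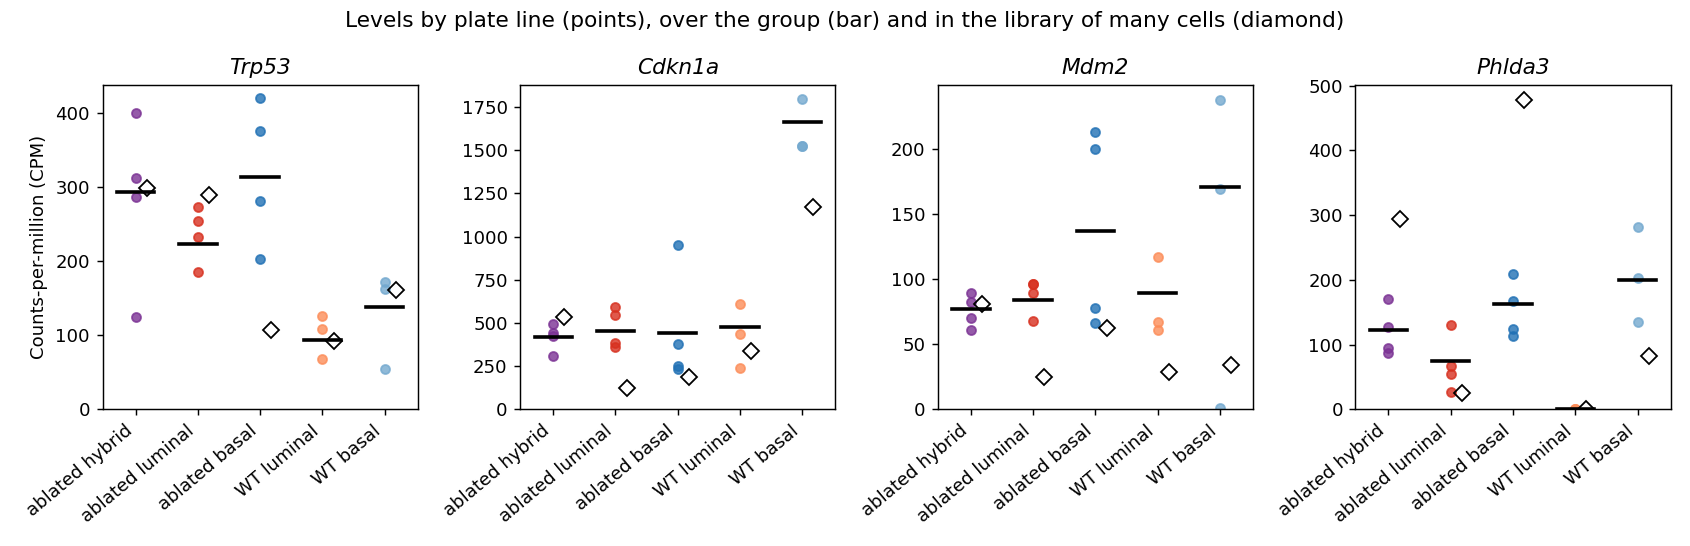
Levels of Trp53, Cdkn1a, Mdm2 and Phlda3 in CPM (vertical axes, each from 0) by plate line. Points are lines with at least 5 kept cells, bars the level of the whole group and diamonds the library of many cells. WT basal lines stand at 1524 to 1795 CPM for Cdkn1a, above all lines of the other groups, of which the highest has 952 CPM.

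Sesn1 and Gdf15 were carried by few cells, while Ccng1, like the mean gene, was detected more widely in hybrid and luminal cells after ablation. Ccng1 encodes cyclin G1, which takes part in the control of p53 and Mdm2. Its level was 42.2 CPM in ablated hybrid, 33.3 CPM in ablated luminal and 64.6 CPM in ablated basal cells, against 42.8 CPM in WT luminal and 81.3 CPM in WT basal cells. It passed 2-fold in no comparison of summed single cells. One ablated basal cell held 65.6% of the Ccng1 reads of that group, whose level was 23.0 CPM without it. Ccng1 was detected in 29.4% of ablated hybrid and 21.1% of ablated luminal cells, in 8.45% of ablated basal cells, and in 16.3% of WT luminal cells and 11.4% of WT basal cells. Detection was thus widest where the level was not highest. Libraries of many cells gave 70.3, 76.3 and 40.5 CPM of Ccng1 in ablated hybrid, luminal and basal. WT luminal had 12.9 CPM and WT basal 0.354 CPM, from 1 read. The log2 ratios there were 1.91 in ablated over WT luminal and 2.28 in ablated over WT basal, against −0.29 in both from single cells.

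Sesn1 encodes sestrin 1, which restrains mTORC1 signalling under stress. Its level was 22.1 CPM in ablated hybrid, 12.2 CPM in ablated luminal and 2.19 CPM in ablated basal cells, against 12.1 CPM in WT luminal and 29.5 CPM in WT basal cells. It was detected in 2.82 to 11.8% of cells. Its log2 ratios were −1.70 in ablated over WT basal cells and 1.40 in ablated hybrid over ablated basal cells. In WT basal cells 1 cell held 51.8% of its reads, and without that cell and its counterpart in ablated basal cells the levels were 0.482 CPM in ablated basal and 14.9 CPM in WT basal cells. The libraries of many cells held no Sesn1 read in ablated basal, WT luminal and WT basal, and gave a log2 ratio of 0.27 in ablated hybrid over ablated basal. A gene of the same strand, 9930024M15Rik, lies within Sesn1 and had 1456 reads in the kept single-cell wells, so reads between them may have been split.

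Gdf15 encodes a stress-induced cytokine of the TGF-beta superfamily. Its level was 9.32 CPM in ablated hybrid, 13.7 CPM in ablated luminal and 2.05 CPM in ablated basal cells, against 0.281 CPM in WT luminal and 8.43 CPM in WT basal cells. At most 5.26% of the cells of a group detected it, and none of 43 WT luminal cells did, a count that leaves room for a share of up to 6.98%. Its log2 ratio of 1.20 in ablated over WT luminal cells came from 4 detecting cells and was 0.97 without the cell with most reads in each group. One WT basal cell held 86.6% of the Gdf15 reads there, and the level without it was 1.19 CPM. In the libraries of many cells it had 62 CPM in WT basal and no read in the others.

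Among genes tied to cell death, Bax was lowest in WT basal cells. Bax encodes a protein that permeabilises the outer mitochondrial membrane. Its level was 70.3 CPM in ablated hybrid, 74.7 CPM in ablated luminal and 80.4 CPM in ablated basal cells, against 92.2 CPM in WT luminal and 10.2 CPM in WT basal cells. The lowest, median and highest cell had 0, 36.8 and 371 CPM in ablated hybrid cells, 0, 18.9 and 664 CPM in ablated luminal, 0, 1.89 and 861 CPM in ablated basal, 0, 7.93 and 1262 CPM in WT luminal, and 0, 0 and 300.1 CPM in WT basal cells. Of 44 WT basal cells, 25 had no Bax read. Without the cell with most Bax reads the level was 55.1 CPM in WT luminal and 6.30 CPM in WT basal cells. It was detected in 41.2% of ablated hybrid (30.6 to 52.4%), 38.2% of ablated luminal (27.2 to 50%), 29.6% of ablated basal (19.3 to 41.6%), 30.2% of WT luminal (17.2 to 46.1%) and 9.09% of WT basal cells (2.53 to 21.7%). The log2 ratio was 2.16 in ablated over WT basal cells and 2.34 in WT luminal over WT basal cells. Plate lines ran from 52.2 to 103 CPM in ablated basal cells and from 5.08 to 22.9 CPM in WT basal cells. In the libraries of many cells Bax had 27.3 CPM in ablated basal and 18.4 CPM in WT basal, a log2 ratio of 0.39 in the same direction and under 2-fold. A protein-coding gene of the same strand, Gm45808, overlaps Bax and had 0 reads in the kept single-cell wells. The effect of this overlap on the Bax counts was not tested.

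Phlda3, whose product competes with Akt for membrane lipids and so dampens Akt signalling, was near 0 in WT luminal cells. Its level was 122 CPM in ablated hybrid, 75.1 CPM in ablated luminal and 163 CPM in ablated basal cells, against 0.380 CPM in WT luminal and 199.8 CPM in WT basal cells. The WT luminal value is 27 reads of 71077421, with an interval of 0.25 to 0.553 CPM. The lowest, median and highest cell had 0, 27.8 and 756 CPM in ablated hybrid cells, 0, 2.66 and 813 CPM in ablated luminal, 0, 25.4 and 848 CPM in ablated basal, 0, 0 and 2.62 CPM in WT luminal, and 0, 3.40 and 1069 CPM in WT basal cells. It was detected in 47.1% of ablated hybrid (36.1 to 58.2%), 26.3% of ablated luminal (16.9 to 37.7%), 45.1% of ablated basal (33.2 to 57.3%) and 29.5% of WT basal cells (16.8 to 45.2%). None of 43 WT luminal cells detected it, so that their share is at most 6.98% by the same limit. Without thinning 46.1% of ablated luminal and 2.33% of WT luminal cells detected Phlda3.

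The log2 ratio of Phlda3 was 3.04 in ablated over WT luminal cells and −4.34 in WT luminal over WT basal cells, and both passed 2-fold under all 11 alternative settings. Lines of the plate ran from 26.1 to 130 CPM in ablated luminal cells and from 0.202 to 0.726 CPM in WT luminal cells. The libraries of many cells had 295 CPM in ablated hybrid, 24.5 CPM in ablated luminal and 477 CPM in ablated basal, against 0 reads in WT luminal, where 3 reads would be 2.98 CPM, and 82.9 CPM in WT basal. Basal markers lay beside this pattern: of the 10 basal markers, 8 were past 2-fold higher in ablated over WT luminal cells, with sums of 6423 CPM in ablated luminal and 168 CPM in WT luminal cells. The median cell had 1460 CPM of basal markers in ablated luminal and 53.5 CPM in WT luminal cells, and 90% of cells lay under 17149 CPM in ablated luminal and 455 CPM in WT luminal cells. In the libraries of many cells the basal markers summed to 498 CPM in ablated luminal and 188 CPM in WT luminal, a smaller gap. Pearson's r across cells of 1 group was taken between Phlda3 and the summed CPM of the markers, each as log2 after adding 10 CPM. With the basal markers it was 0.32 in 85 ablated hybrid and 0.43 in 76 ablated luminal cells, and −0.33 and −0.37 with the luminal markers. In 71 ablated basal and 44 WT basal cells r with the basal markers was 0.14 and −0.04. These cells share a library plate and differ in depth, and the part of basal RNA in the Phlda3 values was not tested.

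Zmat3, the gene of an RNA-binding zinc finger protein, was sparse. Its level was 11.4 CPM in ablated hybrid, 27.1 CPM in ablated luminal and 10.6 CPM in ablated basal cells, against 20.9 CPM in WT luminal and 0.195 CPM in WT basal cells. It was detected in 3 to 9 cells of each of the first 4 groups and in none of 44 WT basal cells, where the limit is 6.82%. Its log2 ratios of 1.01 in ablated over WT basal cells and 1.60 in WT luminal over WT basal cells were 0.57 and 0.85 without the cell with most reads in each group, and 0.12 and 0.84 in the libraries of many cells.

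Trp53inp1 encodes a nuclear and autophagy-linked protein that promotes p53 activity, and it was highest in luminal cells after ablation. Its level was 90.3 CPM in ablated hybrid, 306 CPM in ablated luminal and 34.4 CPM in ablated basal cells, against 114 CPM in WT luminal and 49.6 CPM in WT basal cells. The lowest, median and highest cell had 0, 8.76 and 1805 CPM in ablated hybrid cells, 0, 47.6 and 4364 CPM in ablated luminal, 0, 0.741 and 1290 CPM in ablated basal, 0, 1.30 and 871 CPM in WT luminal, and 0, 0 and 1729 CPM in WT basal cells. It was detected in 40% of ablated hybrid (29.5 to 51.2%), 48.7% of ablated luminal (37 to 60.4%), 7.04% of ablated basal (2.33 to 15.7%), 32.6% of WT luminal (19.1 to 48.5%) and 9.09% of WT basal cells (2.53 to 21.7%). Both basal groups are low in level and in detecting cells, and without the cell with most reads they had 14.7 CPM in ablated basal and 21.7 CPM in WT basal. The log2 ratio was 1.35 in ablated over WT luminal cells, 1.05 in WT luminal over WT basal cells, 1.17 in ablated hybrid over ablated basal cells and −1.66 in ablated hybrid over ablated luminal cells. With equal weight per cell the ratio of WT luminal over WT basal cells was 0.57, under 2-fold. In the libraries of many cells the ablated luminal value of 74.3 CPM lay below the WT luminal value of 127 CPM, a log2 ratio of −0.70.

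**Figure D3:**
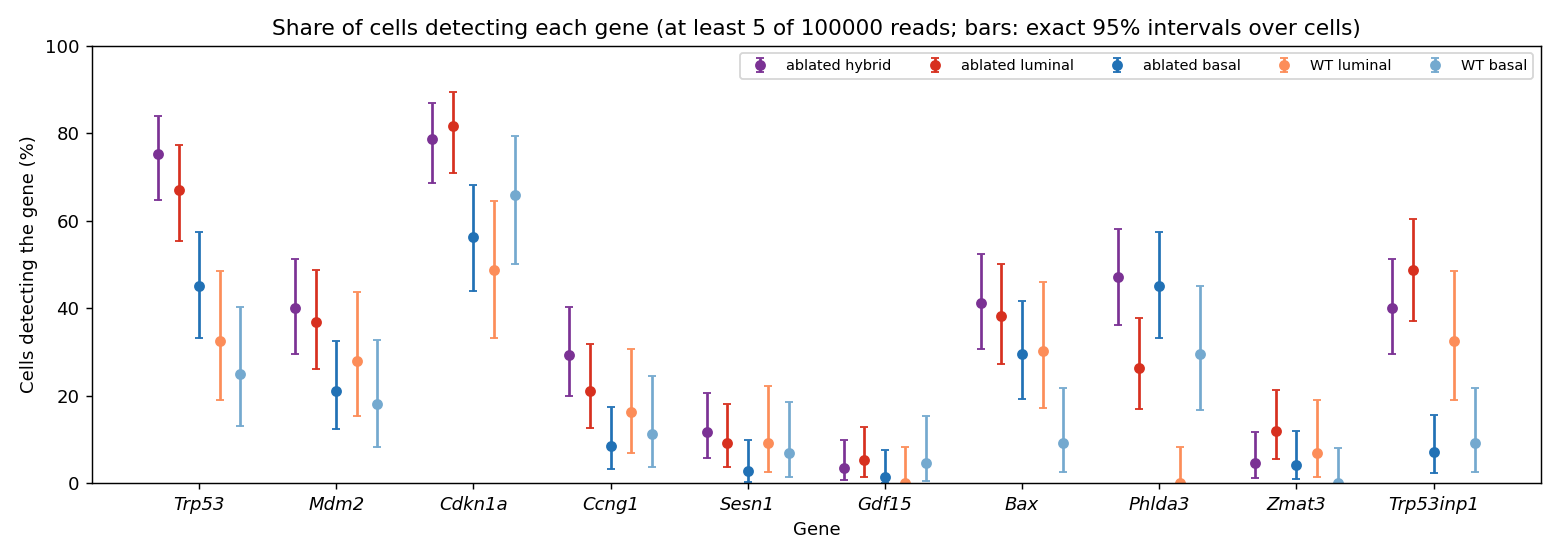
Share of cells, in percent, that detect each of the 10 genes with at least 5 reads after thinning to 100000 reads, with exact 95% intervals over cells. Colours mark the 5 groups. Trp53 and Cdkn1a are detected in 75.3% and 78.8% of ablated hybrid cells, Phlda3 in no WT luminal cell, and Sesn1, Gdf15 and Zmat3 in fewer than 12% of cells in every group.

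Counted over the 10 genes, past 2-fold means an absolute log2 ratio of at least 1. In ablated over WT basal cells 3 genes were higher (Trp53, Bax and Zmat3), where 19.8% of all measured genes were, and 2 were lower (Cdkn1a and Sesn1), where 14.9% were. Either way past 2-fold were 5 of the 10 and 34.7% of measured genes. Ablated over WT luminal cells had 4 of the genes higher (Trp53, Phlda3, Trp53inp1 and Gdf15), against 15.3% of measured genes, and 0 were lower, against 6.61%, while 21.9% of measured genes passed 2-fold in either direction. Trp53 was the 1 gene of the 10 past 2-fold higher in both. These comparisons have no samples in common, and the median log2 ratios of the 10 genes were −0.29 for basal and 0.14 for luminal cells, beside all-gene medians of 0.05 and 0.21. Of the 10 genes, 3 had a log2 ratio above 0 in basal and 6 in luminal cells. In the libraries of many cells 3 of the 5 genes past 2-fold kept their direction in the basal comparison, and 2 of the 4 in the luminal one. Trp53 in the basal comparison was among those that did not.

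Between lineages in WT glands, 3 genes were past 2-fold higher in luminal cells (Bax, Zmat3 and Trp53inp1), against 22.3% of measured genes, and 2 were lower (Phlda3 and Cdkn1a), against 21.3%. The count of the 10 genes past 2-fold in either direction, 5, is near the background of 43.6%. All 5 kept their direction in the libraries of many cells. The median log2 ratio of the 10 genes was −0.81, beside an all-gene median of 0.01.

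Few of these genes passed 2-fold between hybrid cells and the other ablated groups. In ablated hybrid over ablated basal cells 2 genes were past 2-fold higher (Sesn1 and Trp53inp1), against 16% of measured genes, and 0 were lower, against 8.87%. Past 2-fold in either direction were 24.9% of measured genes. From hybrid to luminal cells after ablation the gap was smaller for genes at large, of which 10.2% passed 2-fold in either direction. There 0 of the 10 genes were higher in hybrid cells, against 6% of measured genes, and 1 was lower (Trp53inp1), against 4.19%. Trp53inp1 lay between the other ablated groups, at 90.3 CPM in ablated hybrid, against 306 CPM in ablated luminal and 34.4 CPM in ablated basal cells. Its log2 ratio over ablated basal cells was 0.95 with median-of-ratios scaling, and that over ablated luminal cells was −0.44 in the libraries of many cells, both under 2-fold. These 2 comparisons share the hybrid cells. In the libraries of many cells the counts were larger, with 5 of the 10 genes past 2-fold in hybrid over basal and 4 in hybrid over luminal, Trp53inp1 not being among those 4. The share of all measured genes past 2-fold in these libraries is not given here. The larger counts are therefore not read as a trait of the 10 genes.

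**Figure D4:**
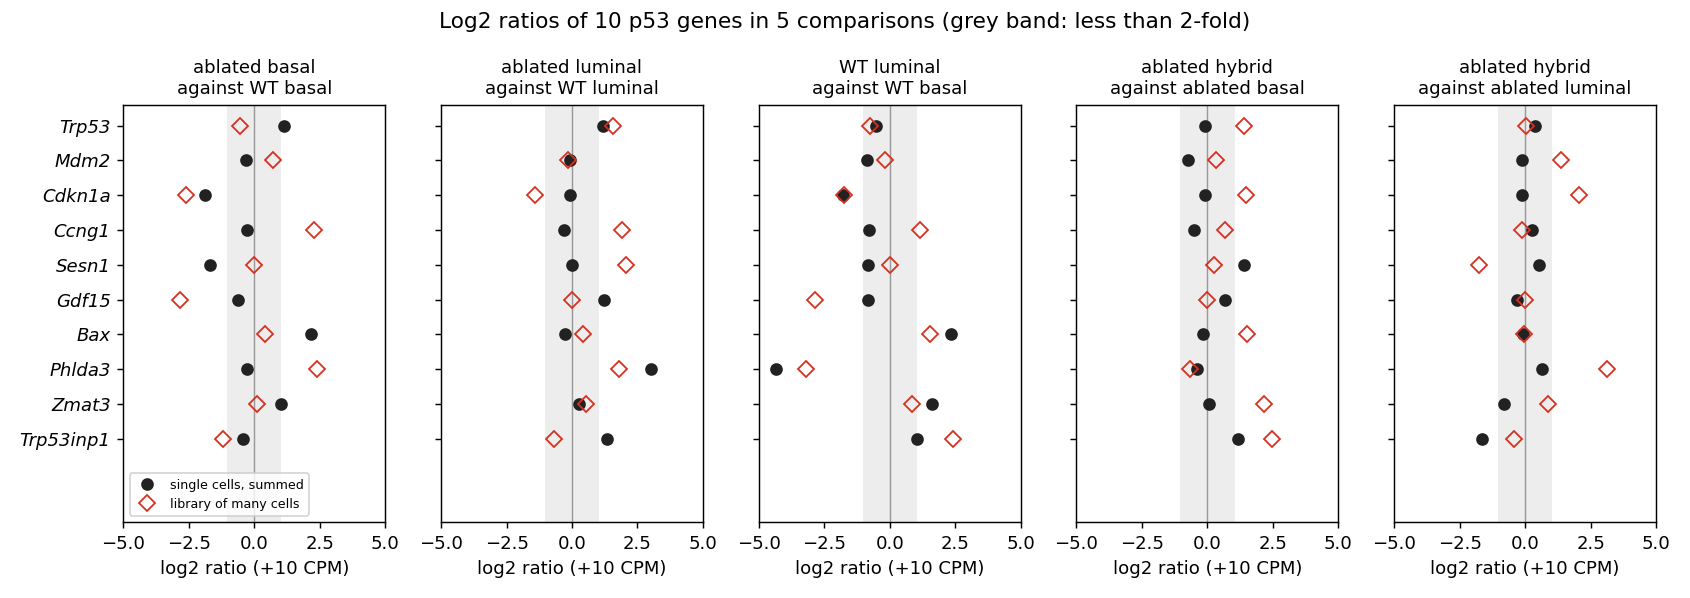
Log2 ratio of each of the 10 genes (horizontal axis, after adding 10 CPM) in 5 comparisons, from summed single cells (dots) and from the libraries of many cells (diamonds). The grey band marks less than 2-fold. Phlda3 lies at 3.04 in ablated over WT luminal cells and at −4.34 in WT luminal over WT basal cells, and Cdkn1a at −1.89 in ablated over WT basal cells.

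Hybrid and luminal cells after ablation detected more of the 10 genes at once. The median cell detected 3 of them in ablated hybrid and ablated luminal cells and 2 in ablated basal, WT luminal and WT basal cells. At least 3 were detected in 72.9% of ablated hybrid (62.2 to 82%), 71.1% of ablated luminal (59.5 to 80.9%), 38% of ablated basal (26.8 to 50.3%), 34.9% of WT luminal (21 to 50.9%) and 25% of WT basal cells (13.2 to 40.3%). The mean measured gene was also detected more often in ablated hybrid and ablated luminal cells, as given above, and the part of this in the counts was not tested. Within groups the genes ran together only weakly. Over the 45 pairs, the mean within-group r across cells on log2(CPM + 10) was highest for Trp53 with Bax, at 0.25, with 0.16 to 0.41 in the 5 groups. Trp53 with Cdkn1a had a mean r of −0.03, and Cdkn1a with Mdm2 of 0.15. All are correlations of sparse counts in cells of 1 plate. With log10 reads per cell, Trp53 and Bax each had an r of 0.41 in ablated hybrid cells. Only in WT basal cells were both below 0, at −0.05 for Trp53 and −0.17 for Bax. The part of depth in the correlations was not tested.

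The 5 measured genes whose levels across the 319 cells, within groups, were most like that of Cdkn1a were Lmna (mean r 0.42), Ifrd1 (0.42), Nr4a1 (0.41), Epha2 (0.39) and Tnfrsf12a (0.38), where 99% of 11105 genes lay under 0.22. The nearest to Trp53 were Cbx1 (0.30), Gar1, Mbd3, Tpgs1 and Aifm1 (0.26 each), and to Trp53inp1 Sdf2 (0.27), E4f1, Gnl3l and Arpc5l (0.26 each) and Gapvd1 (0.25). For both the 99th percentile was 0.19. Cdkn1a ran with the summed level of 10 genes of the integrated stress response (Atf4, Ddit3 and others) at r of 0.30 in ablated hybrid, 0.47 in ablated luminal, 0.14 in ablated basal, 0.42 in WT luminal and 0.39 in WT basal cells. These genes summed to 1664, 1298 and 1105 CPM in ablated hybrid, luminal and basal cells, against 1711 and 1450 CPM in WT luminal and basal cells.

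Of 55 further genes of the p53 pathway, in lists for arrest and repair, apoptosis, metabolism and other functions, and regulators of p53, 48 were measured. Set against WT luminal cells, ablated luminal cells had 9 past 2-fold higher, against 15.3% of all measured genes, and 5 lower, against 6.61%, with a median log2 ratio of 0.36 beside the all-gene 0.21. For ablated over WT basal cells 7 were higher, against 19.8%, and 7 lower, against 14.9%, with a median of −0.07 beside 0.05. In WT luminal over WT basal cells 8 were higher, against 22.3%, and 9 lower, against 21.3%. In ablated hybrid over ablated basal cells 6 were higher, against 16%, and 2 lower, against 8.87%, and in ablated hybrid over ablated luminal cells 2 were higher, against 6%, and 2 lower, against 4.19%. The count in ablated over WT luminal cells thus lies near its background.

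Of 14 arrest and repair genes, 5 were past 2-fold higher in ablated over WT luminal cells, where 15.3% of measured genes were, and 0 were lower, where 6.61% were. Xpc, a sensor of DNA lesions in nucleotide excision repair, had 37.9 CPM in ablated luminal against 1.90 CPM in WT luminal cells, and 27.2 CPM in ablated basal against 1.86 CPM in WT basal cells, and was higher in both libraries of many cells too. Plk2, a polo-like kinase, had 506 CPM in ablated luminal against 185 CPM in WT luminal cells. Sfn, the gene of 14-3-3 sigma, had 521 CPM in ablated luminal against 201 CPM in WT luminal cells. Plk2 and Sfn had the opposite direction in the libraries of many cells, with log2 ratios of −1.28 and −0.60. In ablated over WT basal cells 1 of the 14 was higher, against 19.8%, and 4 were lower, against 14.9%, among them Ddb2, another lesion sensor, with 22.8 CPM in ablated basal against 72.1 CPM in WT basal cells and the opposite direction in the libraries of many cells. Btg2, an antiproliferative gene, had 561 CPM in WT luminal against 1809.8 CPM in WT basal cells.

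Apoptosis genes gave 1 of 9 measured past 2-fold higher in ablated over WT luminal cells, 2 higher in ablated over WT basal cells and 0 lower in either, where 15.3% and 19.8% of measured genes were higher and 6.61% and 14.9% lower. The luminal one was Perp, which encodes a desmosome-associated membrane protein, with 532 CPM in ablated luminal against 173 CPM in WT luminal cells, and a log2 ratio of −0.50 in the libraries of many cells. The basal ones were Pmaip1, the gene of the BH3-only protein Noxa, with 21.8 CPM in ablated basal against 0.108 CPM in WT basal cells, and Apaf1, the scaffold of the apoptosome, with 19.2 CPM in ablated basal against 0.325 CPM in WT basal cells. Both were also higher in the library of many ablated basal cells. In the list of metabolism and other functions, Epha2 and Ddit4, an mTORC1 inhibitor, were lower in ablated basal cells. Epha2 had 61.4 CPM in ablated basal against 337 CPM in WT basal cells, with the opposite direction in the libraries of many cells. Ddit4 had 11.7 CPM in ablated basal against 61 CPM in WT basal cells, lower also in those libraries. Cd82, a tetraspanin, marked lineage, with 662 CPM in WT luminal against 20.9 CPM in WT basal cells and 284 CPM in ablated hybrid against 9.75 CPM in ablated basal cells.

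Regulators of p53 gave 0 of 14 measured higher and 3 lower in ablated over WT luminal cells, beside 15.3% higher and 6.61% lower among measured genes. These were Ep300, a histone acetyltransferase and coactivator, with 21.3 CPM in ablated luminal against 76.4 CPM in WT luminal cells, Hipk2, a kinase that phosphorylates p53, with 37.6 CPM in ablated luminal against 103 CPM in WT luminal cells, and Trp53bp1, a repair factor that binds p53, with 16.7 CPM in ablated luminal against 48.3 CPM in WT luminal cells. Ep300 had the opposite direction in the libraries of many cells. Mdm4, the relative of Mdm2 that masks the activation domain of p53, was lower in ablated hybrid than in ablated basal cells, at 65.3 CPM in hybrid against 175 CPM in basal cells. It had a log2 ratio of 0.04 in the libraries of many cells.

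Relatives of the 10 genes followed other patterns. Trp63, the p53 relative that marks basal cells, had 67.8 CPM in ablated hybrid, against 354 CPM in ablated basal cells. It had 49.1 CPM in ablated luminal, against 0.633 CPM in WT luminal cells, and WT basal cells had 309 CPM. The libraries of many cells differed from this, with 153 CPM in ablated hybrid against 142 CPM in ablated basal, and no Trp63 read in ablated luminal or WT luminal. Trp73 was at 16.2 CPM in ablated hybrid, against 2.99 CPM in ablated luminal and 0.0170 CPM in ablated basal cells. It was 5.94 CPM in ablated hybrid without the cell with most reads, and had no read in any library of many cells. Bcl2l1, whose product Bcl-xL opposes Bax, had 51.7 CPM in ablated luminal against 148 CPM in WT luminal cells and 32.2 CPM in ablated basal against 111 CPM in WT basal cells, and it was lower in both libraries of many cells. Bax itself was past 2-fold higher in ablated basal cells and not in ablated luminal cells. Of the 14 relatives measured, 6 were past 2-fold higher and 1 lower in ablated over WT basal cells, beside 19.8% higher and 14.9% lower among measured genes. In ablated over WT luminal cells 4 were higher and 1 lower, beside 15.3% and 6.61%.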

How the data were processed

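Raw counts of reads per gene and well were deposited, and the values, whole numbers with unequal totals, show no normalization by the authors. Software listed in the submitters' processing notes is cutadapt 1.13 with STAR 2.5.2b, and HTSeq 0.6.0 with Seurat, for GRCm38, without roles. The annotation release and whether counting used strand are not stated there. Symbols and exon lengths come from GENCODE M21 on GRCm38, which named 49326 of 49585 genes. The 92 spike-in sequences held 11 reads and were left out.

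Wells were grouped by the labelled treatment and cell type. Single-cell wells were kept with at least 100000 reads in genes, 1000 genes and at most 20% mitochondrial reads, which left 319 of 374. Of the 55 others, 47 had too few reads and 8 too large a mitochondrial share. Wells that may hold more than 1 cell were not searched for. Counts were summed over cells, scaled to CPM and given exact Poisson 95% intervals. Reads are not molecules, since Smart-seq2 has no molecular identifiers. Shares carry Clopper-Pearson exact 95% intervals, and a share of 0 has as its limit 3 cells of the group. Thinning was random with a fixed seed.

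The text names all 10 genes, genes of each list from the 4 measured with the largest absolute log2 ratio in a comparison, and for the 3 of the 10 with the highest mean CPM the 5 genes with the highest mean within-group correlation. Members and lists were chosen with earlier results of these data known. Alternatives changed 1 choice at a time: well limits, weight per cell, TMM or median-of-ratios scaling, 1 CPM added in place of 10, removal of the cell with most reads of a gene, subtraction of reads in negative wells, and the libraries of many cells. Python 3.11.15, numpy 2.4.6, pandas 2.3.3, SciPy 1.17.1 and matplotlib 3.10.9 were used, and edgeR 4.0.16 for TMM factors only. The step that forms log2 ratios was tested on simulated counts, and the other steps were not.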

Additional observations from a re-analysis of the deposited data

Results flagged for a closer look

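For 5 of the 10 genes the log2 ratio of ablated over WT cells differed by more than 1.5 between luminal and basal cells, and this difference was not tested, since each group is 1 sample. Luminal minus basal it was 3.32 for Phlda3 (3.04 in luminal, −0.28 in basal cells), 1.82 for Gdf15 (1.20 in luminal, −0.61 in basal), 1.78 for Trp53inp1 (1.35 in luminal, −0.42 in basal), 1.70 for Sesn1 (0.01 in luminal, −1.70 in basal) and −2.44 for Bax (−0.27 in luminal, 2.16 in basal). The libraries of many cells did not repeat this for Phlda3 (1.79 in luminal, 2.39 in basal), Bax (0.40 and 0.39) and Trp53inp1 (−0.70 and −1.18). For Gdf15 (0 in luminal, −2.85 in basal) and Sesn1 (2.05 and 0) luminal was again the higher. Zmat3 and Sesn1 each had 1 read in 1 of the 5 negative control wells and 0 in the others, which set that well apart from the rest. A single read among 5 wells always sets 1 well apart.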

How the results depend on the processing

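Of the 17 log2 ratios past 2-fold, all 17 kept their sign under every setting run on single cells, and 14 to 17 stayed past 2-fold. With the libraries of many cells in place of single cells 15 did not reverse, and 8 stayed past 2-fold with the same sign. Among those 15, Sesn1 in ablated over WT basal cells and Gdf15 in ablated over WT luminal cells had a ratio of 0. Neither library of those pairs held a read of the gene, so these ratios have no sign. The 2 that reversed were Trp53 in ablated over WT basal cells, at −0.55, and Trp53inp1 in ablated over WT luminal cells, at −0.70. The count of the 10 genes past 2-fold in ablated hybrid over ablated basal cells, 2, was 1 with median-of-ratios scaling and 5 in the libraries of many cells. In ablated hybrid over ablated luminal cells the count, 1, was 2 with 1 CPM added and 4 in the libraries of many cells. The cause was not tested, and the counts from the libraries have no share of all measured genes beside them. Leaving out the cell with most reads of a gene moved the all-gene median from 0.21 to 0.38 in ablated over WT luminal cells. Without the filter on low values 2.44 to 10.3% of all genes passed 2-fold in either direction, and with 1 CPM added 21.9 to 58.5%, against 10.2 to 43.6%. No paired analysis was possible because no test was run and the labels number no replicates across groups. Levels of Sesn1, Gdf15 and Zmat3 rest on few detecting cells, and their ratios are limited by this.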

Other observations

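Cell cycle genes were counted beside Cdkn1a. Of 14 measured genes of a list of 17 proliferation genes (Mki67, Top2a, Ccnb1 and others), 12 were past 2-fold higher in ablated over WT luminal cells (15.3% of measured genes) and 0 lower (6.61%), with a median log2 ratio of 1.95 beside the all-gene 0.21. The list summed to 720 CPM in ablated luminal against 159 CPM in WT luminal cells, while Cdkn1a had a log2 ratio of −0.06. The median cell had 168 CPM of the list in ablated luminal and 132 CPM in WT luminal cells. In the libraries of many cells the sums were 240 CPM in ablated luminal and 120 CPM in WT luminal. The 4 genes with the largest luminal ratios, Cdk1, Rrm2, Aurkb and Top2a, had log2 ratios of 0, 0, 0 and −1.17 there. Sums in those libraries were 194 CPM in ablated hybrid, 64.6 CPM in ablated basal and 123 CPM in WT basal. In ablated hybrid over ablated basal cells 11 of the 14 were higher (16% of measured genes) and 0 lower (8.87%), with sums of 581 CPM in hybrid against 154 CPM in basal cells, and Cdkn1a had a log2 ratio of −0.09. In ablated over WT basal cells, where Cdkn1a was at −1.89, 3 were higher (19.8%) and 2 lower (14.9%), with sums of 154 CPM in ablated basal against 270 CPM in WT basal cells, while the median cell had 23.2 CPM in ablated basal and 4.25 CPM in WT basal cells. Across cells, Pearson's r of Cdkn1a with the summed level of the list was 0.28 in ablated hybrid, −0.20 in ablated luminal, −0.02 in ablated basal, 0.09 in WT luminal and 0.16 in WT basal cells.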
